A study of Mus musculus with 6 samples.

Results

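Collagens are the proteins of the muscle's connective tissue. The genes described here are the protein-coding genes whose symbol has the form Col, number, a, number and for which the authors listed a TPM value, a level scaled for gene length and for the library. There were 38 such genes among 16800 genes with TPM and 45777 genes with counts: 10 fibrillar, 8 basement membrane, 5 Col6 and 15 other collagen genes. Each was joined by its gene identifier to the raw counts, and all 38 passed the filter on low counts that left 16188 genes for testing.

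The tissue was the tibialis anterior (TA), a fast muscle of the lower leg, taken from aged male C57BL/6J mice, whose labels give an age of 24 months. One group of 3 mice received vehicle, a mixture of DMSO and Tween 80, and the other group of 3 mice received BML-260, the compound that the study uses to inhibit the phosphatase DUSP22, at 5 mg/kg for 1 month by intraperitoneal injection. The comparison asks how collagen RNA in aged muscle differed with BML-260. No young or untreated mice were part of the comparison, so the values do not show which of these levels belong to ageing. Each mouse gave 1 library, prepared from its total RNA with a stranded kit.

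A collagen is built from 3 chains that wind around each other into a helix, and chains of different genes may share 1 helix. Fibrillar collagens, chiefly types I and III, form the ropes of tendon and of the perimysium and endomysium, the sheaths around bundles and single fibres. Type IV collagen forms the sheet of the basement membrane on each fibre and capillary, type VI forms beaded filaments that tie this sheet to the fibrils, and FACIT collagens sit on the fibril surface. In muscle most of the fibrillar chains come from fibroblasts and fibro-adipogenic progenitors. In a whole muscle, fewer cells of a type and less RNA per cell cannot be told apart.

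The libraries held 39522890 to 56998875 counts, of which the collagen genes took 0.0677% to 0.0877%. The libraries were those of skeletal muscle. The 7 TA identity genes (Acta1, Ckm, Myh4, Myh1, Tnnt3, Tnni2 and Pvalb) summed to between 86882 and 116355 TPM in each library. Genes of slow muscle were not set beside them here. Vehicle replicate 3 stood apart, with a TMM scaling factor of 1.20 against 0.914 to 1.02 in the other 5 libraries. Its normalized count, the count divided by DESeq2's size factor, was above 1.5 times the median of the other libraries for 8 of the 38 collagen genes and below the inverse of that for 10. Over all tested genes these shares were 19.1% and 18.0%, against 21.1% and 26.3% for the collagens. Results that rest on this library are therefore given with and without it.

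Between the groups, 4 collagen genes passed a nominal threshold and none passed an adjusted p of 0.05, with log2 fold changes from -1.19 (Col19a1) to 0.64 (Col6a6). BML-260 was compared with vehicle by edgeR's quasi-likelihood test, and a positive log2 fold change means a higher value with BML-260. At a fold of 1.3 or more and an unadjusted p under 0.05, here termed a call, 3 of the 38 genes were called lower (Col1a1, Col5a2 and Col19a1), where 4.86% of all tested genes were, and 1 was called higher (Col22a1), where 0.896% were. With edgeR p-values adjusted by the Benjamini-Hochberg method, 0 of the 38 passed 0.05 (0% of all genes), beside 4 with an unadjusted p under 0.05, and the smallest adjusted p among them was 0.754. DESeq2 also gave 0 of 38 (0.587% of all genes), beside 4 with an unadjusted p under 0.05. The groups did not overlap in normalized counts for 1 gene lower with BML-260 (Col4a1; 6.75% of all genes) and 1 gene higher (Col22a1; 5.41%).

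The median log2 fold change of the 38 genes was 0.11, with 17 genes negative and 21 positive, and that of all tested genes was -0.0039. For the 10 collagens with the highest mean TPM the median was -0.10, with 6 negative and 4 positive. It was -0.175 for these 10 without vehicle replicate 3, with 8 negative and 2 positive. Without vehicle replicate 3 the median of the 38 genes was 0.034. Then 2 collagen genes were called lower (Col3a1 and Col19a1; 2.99% of all genes) and 2 higher (Col20a1 and Col9a1; 1.02%), so that Col19a1 was the 1 gene called in both sets of libraries. These counts are small, and the shares of all genes beside them are what the same rule gave across the muscle's RNA.

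**Figure D1:**
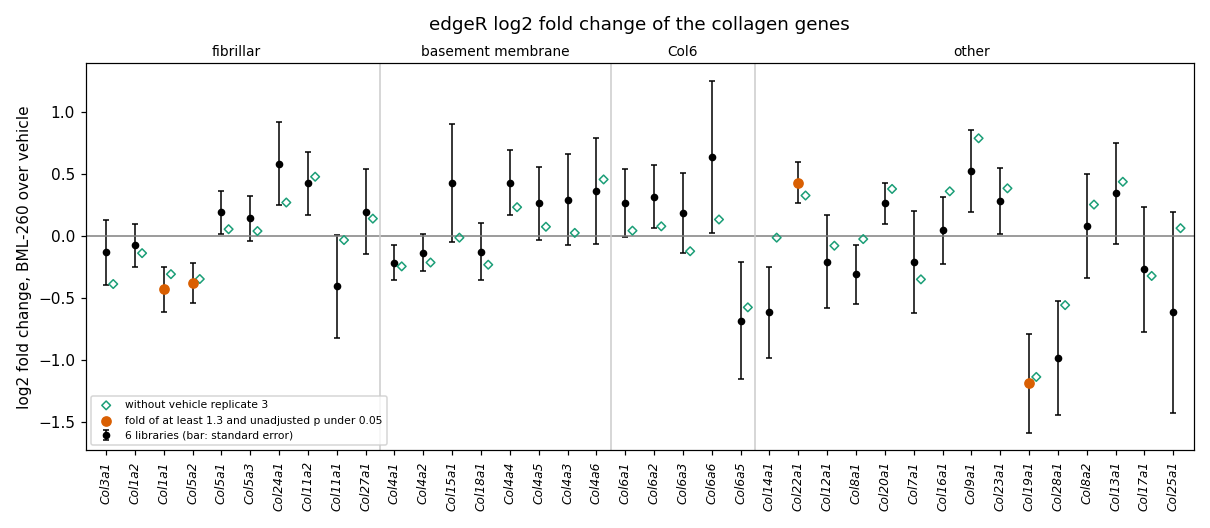
Log2 fold change (BML-260 over vehicle, y axis) of the 38 collagen genes by class, from edgeR with 6 libraries (filled points, bars are standard errors) and without vehicle replicate 3 (open diamonds). The 4 called genes are orange, and the diamonds of Col15a1 and Col14a1 lie near 0 while their filled points are at 0.43 and -0.62.

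The abundance of the collagens spanned from Col3a1, at 33.3 to 49.8 TPM, down to Col25a1, at 0.00838 to 0.146 TPM. Of the 38 genes, 22 had a mean of at least 1 TPM over the 6 libraries and 16 lay below it. The 10 most abundant, in order Col3a1, Col1a2, Col4a1, Col4a2, Col6a1, Col6a2, Col1a1, Col6a3, Col5a2 and Col15a1, held between 79.7% and 86.0% of the collagen TPM of each library. The fibrillar, basement membrane and Col6 classes are all among these 10, and none of the 15 other collagen genes is.

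Collagen TPM summed to 236, 204 and 242 in the vehicle libraries and to 207, 195 and 199 in the BML-260 libraries (replicates 1, 2 and 3), with means of 227 ± 20.0 and 201 ± 6.16 (SD, n = 3). The groups overlapped, since vehicle replicate 2 lay below BML-260 replicate 1. The ratio of the means was 0.882, a log2 ratio of -0.18, and it was 0.911 without vehicle replicate 3. TPM was not scaled for composition: the median log2 difference of all genes was -0.14 on log2(TPM + 0.1) and -0.098 on log2(TPM + 1), and the summed collagen CPM with TMM scaling gave a log2 ratio of -0.048. A difference in TPM is therefore to be read against that shift of all genes.

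Fibrillar TPM summed to 111, 99.1 and 115 with vehicle and to 95.4, 86.2 and 85.6 with BML-260, a ratio of 0.824 with no overlap. Basement membrane TPM was 55.4, 53.9 and 63.2 with vehicle and 47.1, 46.4 and 52.1 with BML-260, a ratio of 0.844, also with no overlap. Both sums are carried by a few abundant genes, and the log2 ratios of -0.28 and -0.24 stand against the shift of all genes given above. The lack of overlap is stated for TPM only. In normalized counts the groups overlapped for all 10 fibrillar genes. They did not for 1 of 8 basement membrane genes (Col4a1, lower; 6.75% of all genes). Vehicle replicate 3 had the highest of both sums in TPM. In normalized counts it was the lowest library for 4 and the highest for 3 of the fibrillar genes. For the basement membrane genes it was the lowest for 4 and the highest for 0. Col6 TPM was 53.4, 35.8 and 31.6 with vehicle and 47.5, 45.4 and 43.1 with BML-260, a ratio of 1.13. The other collagens summed to 16.3, 15.7 and 32.3 with vehicle and 17.3, 17.1 and 18.4 with BML-260. Their ratio of 0.820 became 1.10 without vehicle replicate 3, which held the highest sum of the other collagens and the lowest sum of Col6.

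**Figure D2:**
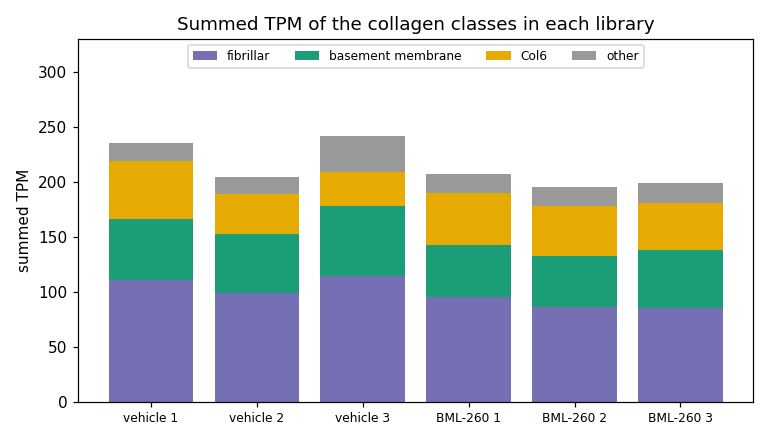
Summed TPM (y axis, from 0) of the 4 collagen classes, stacked for each of the 6 libraries. Vehicle replicate 3 has a Col6 share of 13.1% and a share of other collagens of 13.4%, where the other libraries lie at 17.5% to 23.3% and at 6.92% to 9.25%.

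Among the fibrillar collagens the median log2 fold change was 0.037, with 5 of the 10 genes negative and 5 positive. Col3a1 (gene identifier 12825, chr1:45311538-45349706 in GRCm38), the chain of type III collagen in the fine fibrils of the endomysium, had normalized counts of 7833, 6866 and 3770.4 with vehicle and 6465, 5219 and 5234 with BML-260. Vehicle replicate 3 was the lowest of the 6 and the other vehicle libraries were the highest. The log2 fold change was -0.13 (SE 0.26). With vehicle replicate 3 left out it was -0.39 (SE 0.15) and Col3a1 was called lower, with an adjusted p of 0.925 by edgeR with Benjamini-Hochberg adjustment, in a range of 0.852 to 0.981 over the alternatives.

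Type I collagen, the main fibril of tendon and perimysium, is built from the chains of Col1a1 and Col1a2. Col1a1 (12842, chr11:94936224-94953042) had normalized counts of 1768, 2326 and 2589 with vehicle and 1885, 1431 and 1652 with BML-260. Vehicle replicates 2 and 3 were above all BML-260 libraries, and replicate 1 lay among them. Col1a1 was called lower, with a log2 fold change of -0.43 (SE 0.18, adjusted p = 0.788 by edgeR with Benjamini-Hochberg adjustment, 0.276 to 1.00 over the alternatives). The call was lost without vehicle replicate 2 (-0.40) or 3 (-0.31) and without BML-260 replicate 2 (-0.33) or 3 (-0.43). It was also lost with voom, with the replicate number as a block and on log2 TPM with either pseudocount, and 8 of 16 alternatives called it. Col1a2 (12843, chr6:4505618-4541543), the partner chain, had 4487, 4059 and 3726 with vehicle and 4695, 3708 and 3287 with BML-260. Its groups overlapped throughout and the log2 fold change was -0.07 (SE 0.17). The ratio of Col1a1 to Col1a2 TPM was between 0.340 and 0.612 in the 6 libraries and overlapped between the groups, with the highest value in vehicle replicate 3.

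The ratio of Col1a1 to Col3a1 TPM, which does not depend on library scaling, was 0.212, 0.318 and 0.644 with vehicle and 0.274, 0.257 and 0.296 with BML-260. The mean log2 ratio differed by -0.35 (exact permutation test over the 6 libraries, 2-sided, p = 0.7, where the smallest p this design allows is 0.1). Without vehicle replicate 3 the difference was 0.085 (exact permutation test, 2-sided, p = 0.8), so its direction rested on that library.

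Type V collagen is built into the core of type I fibrils and sets their diameter. Col5a2 (12832, chr1:45374331-45503282), a chain of type V, had normalized counts of 1711, 1471 and 1713 with vehicle and 1500.4, 1174 and 1091 with BML-260. Only vehicle replicate 2 and BML-260 replicate 1 crossed. Col5a2 was called lower, with a log2 fold change of -0.38 (SE 0.16, adjusted p = 0.788 by edgeR with Benjamini-Hochberg adjustment, 0.434 to 1.00 over the alternatives). The call was lost without vehicle replicate 1 (-0.34) or 3 (-0.35) and without BML-260 replicate 2 (-0.33) or 3 (-0.29), and by DESeq2, where the unadjusted p was 0.051. It was also lost with RLE scaling, without a filter, with voom and on log2 TPM with either pseudocount. Its fold of 1.302 lay just above the threshold of 1.3, and 6 of 16 alternatives called it.

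The other type V genes did not share this direction. Col5a1 (12831) had normalized counts of 1209, 1151 and 863 with vehicle and 1286, 1062 and 1344 with BML-260, a log2 fold change of 0.19 (SE 0.18). Col5a3 (53867) had 567, 768 and 525 with vehicle and 670.0, 625 and 766 with BML-260, a log2 fold change of 0.15 (SE 0.18). In both, vehicle replicate 3 was the lowest library, and without it the values were 0.06 and 0.04.

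The remaining fibrillar genes lay near or below 1 TPM. Col24a1 and Col27a1 are minor fibrillar collagens known from bone and cartilage, and Col11a1 and Col11a2 encode chains of type XI, the core of cartilage fibrils. Col24a1 had normalized counts of 204, 229 and 90.9 with vehicle and 297, 277 and 209 with BML-260, a log2 fold change of 0.59 (SE 0.34) that was 0.27 without vehicle replicate 3. Col11a2 had a log2 fold change of 0.43 (SE 0.25) and Col11a1 one of -0.41 (SE 0.42). Vehicle replicate 3 held the highest Col11a1 count of the 6 (148 against 52.9 to 114), and without it the value was -0.03. Col27a1 differed by 0.20 (SE 0.34), and by -0.05 on log2(TPM + 0.1), where the median of all genes was -0.14.

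**Figure D3:**
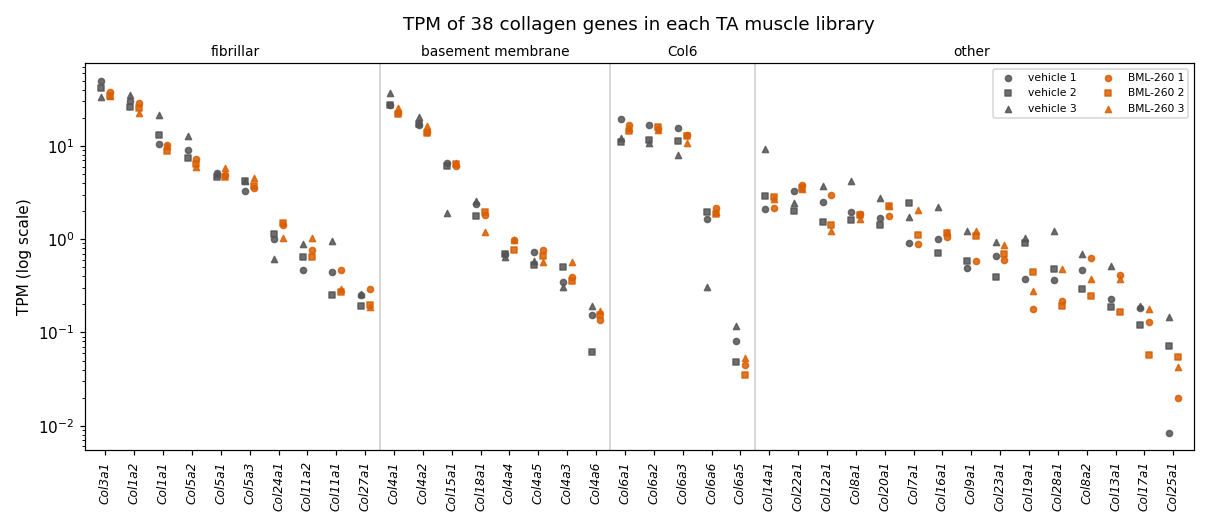
TPM (log y axis) of each of the 38 collagen genes in each library, by class and in order of abundance, with grey symbols for vehicle and orange for BML-260 (circle, square and triangle are replicates 1, 2 and 3). Within the gene the groups mostly overlap, and the grey triangle of vehicle replicate 3 lies far below the rest for Col15a1 (1.91 TPM) and Col6a6 (0.305 TPM).

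In the basement membrane class the median log2 fold change was 0.28, with 3 of 8 genes negative, and it was 0.0073 without vehicle replicate 3. Col4a1 and Col4a2 encode the chains of the type IV network present in nearly every basement membrane. They lie head to head on chromosome 8 and are transcribed in opposite directions from a shared start region, which is why both windows are printed here, from 250 bases before to 50 after the RefSeq start in GRCm38.p6. Their gene models overlap by 85 bases, and the windows share the 78 bases at chr8:11312777-11312854. The start used for the Col4a1 window lies inside its gene model, whose 5′ end is at 11312889. Each sequence is written 5′ to 3′ on the strand of its gene, and capitals mark the shared bases, so that the capitals of one are the reverse complement of the other.

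Col4a1 (chr8:11312777-11313076, minus strand): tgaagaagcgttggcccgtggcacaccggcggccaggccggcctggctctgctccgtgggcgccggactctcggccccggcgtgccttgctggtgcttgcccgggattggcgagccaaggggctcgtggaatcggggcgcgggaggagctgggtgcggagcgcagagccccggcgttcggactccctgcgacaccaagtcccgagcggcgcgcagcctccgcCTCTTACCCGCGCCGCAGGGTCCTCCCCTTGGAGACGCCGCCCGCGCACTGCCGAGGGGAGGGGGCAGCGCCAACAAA

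Col4a2 (chr8:11312555-11312854, plus strand): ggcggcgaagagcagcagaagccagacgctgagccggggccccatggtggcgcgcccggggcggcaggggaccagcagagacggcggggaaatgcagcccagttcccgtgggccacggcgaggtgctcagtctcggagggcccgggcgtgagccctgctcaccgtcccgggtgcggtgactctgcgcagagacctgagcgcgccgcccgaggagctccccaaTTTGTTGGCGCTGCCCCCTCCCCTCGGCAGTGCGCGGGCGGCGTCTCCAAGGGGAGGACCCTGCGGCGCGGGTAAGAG

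Col4a1 (12826, chr8:11198423-11312889) had normalized counts of 5164, 5369 and 4947 with vehicle and 4690.1, 4018 and 4665 with BML-260. It was the collagen gene with the smallest SE, and every BML-260 library lay below every vehicle library. Its log2 fold change was -0.21 (SE 0.14), below the fold of a call, with an unadjusted edgeR p of 0.161 and a range of -0.25 to -0.14 when each library was left out in turn. Col4a2 (12827, chr8:11312805-11449287) had 3070.0, 3285 and 2659 with vehicle and 2819.8, 2466 and 2957 with BML-260. Vehicle replicate 3 lay among the BML-260 libraries, and the log2 fold change was -0.13 (SE 0.15). The ratio of Col4a1 to Col4a2 TPM was between 1.54 and 1.82 in all 6 libraries. Whether reads were assigned by strand is not given in the sources used here, and reads in the 85 shared bases could have been given to either gene.

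The other type IV chains are known from the basement membranes of kidney and lung and, in muscle, from the neuromuscular synapse, and all lay below 1 TPM. Col4a3 and Col4a4 lie head to head on chromosome 1, overlapping by 114 bases, and Col4a5 and Col4a6 lie 1274 bases apart on the X chromosome. Col4a4 had normalized counts of 173, 192 and 113 with vehicle and 245, 169 and 231 with BML-260, a log2 fold change of 0.43 (SE 0.26). Col4a3 differed by 0.29 (SE 0.37), Col4a5 by 0.26 (SE 0.29) and Col4a6 by 0.36 (SE 0.43). Vehicle replicate 3 had the lowest count of the 6 for Col4a3, Col4a4 and Col4a5, and without it the values of these genes were 0.03, 0.23 and 0.08. For each of these head-to-head or neighbouring pairs both values had the same sign.

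Types XV and XVIII are multiplexins, collagens with heparan or chondroitin sulphate chains at the border of the basement membrane. Col15a1 (12819, chr4:47207655-47313167) had normalized counts of 985, 962 and 207 with vehicle and 997, 944 and 962 with BML-260. The 5 libraries other than vehicle replicate 3 differed by little, and that library lay at 0.215 of their median. The log2 fold change was 0.43 (SE 0.48) with it and -0.01 without it. Col18a1 (12822), the precursor of endostatin, had 374, 323 and 276 with vehicle and 351, 328 and 214 with BML-260, a log2 fold change of -0.12 (SE 0.23). Summed over the endothelial genes (Pecam1, Cdh5, Kdr and Tek), TPM was 49.1, 52.8 and 67.7 with vehicle and 45.7 to 58.0 with BML-260, and 0 of the 4 were called. The mural genes (Pdgfrb, Rgs5, Acta2 and Myh11) summed to 298 to 340 TPM with vehicle and 283 to 359 with BML-260, also with 0 of 4 called. In normalized counts, the scale on which vehicle replicate 3 was lowest for Col15a1, that library was the lowest of the 6 for Cdh5 (1221) and Kdr (604) and the highest for Pecam1 (2447) and Tek (1054). The part of vessel cells in these values was not tested.

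Type VI collagen surrounds every muscle fibre, and mutations of its main chains cause congenital muscular dystrophies. Of its 5 genes, 4 had positive log2 fold changes and the median was 0.27, which was 0.044 without vehicle replicate 3. Col6a1 (12833, chr10:76708792-76726044) had normalized counts of 2168, 1298 and 995 with vehicle and 2068, 1599.8 and 1721 with BML-260. Col6a2 (12834, chr10:76595756-76623630) had 1872, 1319 and 872 with vehicle and 1822, 1697 and 1564 with BML-260. Col6a3 (12835, chr1:90766860-90844001), the longest of these chains, had 4196, 3010.4 and 1526 with vehicle and 3815, 3393 and 2769 with BML-260. In all 3 genes vehicle replicate 1 was the highest library and vehicle replicate 3 the lowest, with the BML-260 libraries between them.

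The log2 fold changes were 0.27 (SE 0.27) for Col6a1, 0.32 (SE 0.25) for Col6a2 and 0.19 (SE 0.33) for Col6a3. They were 0.04, 0.08 and -0.12 without vehicle replicate 3. Without vehicle replicate 1 they were 0.65, 0.63 and 0.55, and Col6a1 and Col6a2 were then called higher, with adjusted p-values of 0.276 and 0.298 by edgeR with Benjamini-Hochberg adjustment, each the lowest over the alternatives, which reached 1.00. Leaving out that library raised the calls of all genes, to 5.07% higher and 8.36% lower. The ratio of Col6a1 to Col6a2 TPM stayed between 0.921 and 1.15 and that of Col6a3 to Col6a2 between 0.724 and 0.958, within a narrower span than the counts of each gene.

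Col6a5 and Col6a6 encode longer chains that resemble that of Col6a3, and lie 27823 bases apart on chromosome 9. Col6a6 (245026) had normalized counts of 328, 413 and 44.7 with vehicle and 466, 367 and 387 with BML-260. Vehicle replicate 3 lay at 0.116 of the median of the other libraries, the lowest such value among the 38 genes. The log2 fold change was 0.64 (SE 0.61) with that library and 0.13 without it. Col6a5 (665033), at 0.0350 to 0.118 TPM, differed by -0.68 (SE 0.47).

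**Figure D4:**
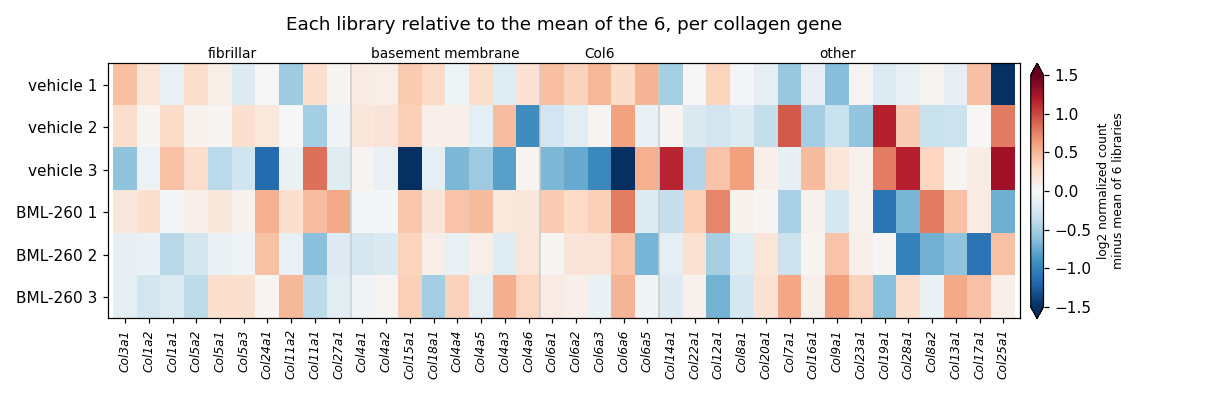
Log2 normalized count of each collagen gene (columns, by class) in each library (rows) minus the mean of the 6 libraries, with red above and blue below the mean and the colour scale ending at 1.5 in either direction. Vehicle replicate 3 has the lowest normalized count for 13 genes, among them Col6a1, Col6a2, Col6a3, Col6a6 and Col15a1, and the highest for 9, among them Col14a1 and Col28a1.

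The 15 other collagens had a median log2 fold change of -0.21, with 8 negative and 7 positive, and 0.065 without vehicle replicate 3. Col19a1 (12823, chr1:24257683-24587922), a FACIT collagen first found in rhabdomyosarcoma cells, had the most negative log2 fold change of the 38 genes. Its normalized counts were 130.3, 337 and 256 with vehicle and 69.0, 152 and 97.0 with BML-260, from 79 to 344 raw counts a library. Vehicle replicates 2 and 3 were above all BML-260 libraries, and vehicle replicate 1 lay below BML-260 replicate 2. It was called lower, with a log2 fold change of -1.19 (SE 0.40, unadjusted p = 0.017, adjusted p = 0.754 by edgeR with Benjamini-Hochberg adjustment, 0.247 with DESeq2 and up to 0.981 over the alternatives), a mean 2.28-fold higher with vehicle. The call was lost without vehicle replicate 2 (-0.88) and without BML-260 replicate 1 (-0.96) or 3 (-1.13). Without vehicle replicate 3 it stayed, at -1.14, and 13 of 16 alternatives called it. Among the called collagens, Col1a1, Col5a2 and Col22a1 have no RefSeq start window. The window around the RefSeq start of Col19a1 in GRCm38.p6 is shown because this gene gave the call that held in most alternatives. The table gives 1 start for this gene, which lies inside the gene model printed above, so that the window is not at the 5′ end of the model (24587922). It holds a single E-box, the motif CANNTG bound by basic helix-loop-helix factors, in capitals.

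Col19a1 (chr1:24587388-24587687, minus strand): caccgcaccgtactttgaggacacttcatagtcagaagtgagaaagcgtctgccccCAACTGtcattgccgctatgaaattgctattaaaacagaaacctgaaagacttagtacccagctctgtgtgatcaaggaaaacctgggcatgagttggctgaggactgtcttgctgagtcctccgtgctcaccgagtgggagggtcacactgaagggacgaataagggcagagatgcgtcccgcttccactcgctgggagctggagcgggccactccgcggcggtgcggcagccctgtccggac

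Genes that respond to loss of innervation had values of the same direction. TPM summed over Chrna1, Chrng, Chrnd, Musk, Ncam1 and Runx1, which mark the neuromuscular junction and denervated fibres, was 24.1, 49.0 and 62.1 with vehicle and 14.8, 19.0 and 17.6 with BML-260 (5 of the 6 have TPM). As with Col19a1, vehicle replicate 1 was the lowest of the vehicle libraries. Of the 6 genes, 4 were called lower (4.86% of all tested genes): Chrna1 (-1.50), Musk (-0.76), Ncam1 (-1.34) and Runx1 (-2.57). Their part in the Col19a1 result was not tested. Col13a1 and Col25a1, transmembrane collagens that act where nerve meets muscle, were near the bottom of the range of levels. Col13a1 had normalized counts of 32.3, 28.1 and 36.5 with vehicle and 48.3, 22.9 and 52.8 with BML-260, a log2 fold change of 0.34 (SE 0.41). Col25a1 had 1.90, 16.6 and 23.8 with vehicle and 5.17, 13.0 and 9.82 with BML-260, a log2 fold change of -0.62 (SE 0.81) that was 0.06 without vehicle replicate 3.

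Col9a1 lies 4944 bases from Col19a1 on chromosome 1 and had the opposite sign. This FACIT gene of cartilage had normalized counts of 54.2, 67.7 and 96.8 with vehicle and 71.6, 115 and 131 with BML-260, a log2 fold change of 0.53 (SE 0.33). Without vehicle replicate 3 it was 0.79 and Col9a1 was called higher, with an adjusted p of 1.00 by edgeR with Benjamini-Hochberg adjustment, in a range of 0.662 to 1.00 over the alternatives.

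Col22a1 (69700, chr15:71795795-72150979), the FACIT collagen of the myotendinous junction, had normalized counts of 575, 494 and 425 with vehicle and 741, 677 and 603 with BML-260. Every BML-260 library was above every vehicle library, though BML-260 replicate 3 exceeded vehicle replicate 1 by little. Col22a1 was called higher, with a log2 fold change of 0.43 (SE 0.17, unadjusted p = 0.030, adjusted p = 0.788 by edgeR with Benjamini-Hochberg adjustment, 0.284 to 1.00 over the alternatives). Leaving out single libraries gave 0.33 to 0.55, and the call was lost without vehicle replicate 2 (0.43) or 3 (0.33) and without BML-260 replicate 1 (0.36) or 2 (0.43). It was also lost on log2 TPM with either pseudocount, and 10 of 16 alternatives called it. In TPM the levels were 3.30, 1.99 and 2.47 with vehicle and 3.77, 3.55 and 3.49 with BML-260. Tendon genes (Scx, Tnmd, Mkx, Fmod, Thbs4 and Comp) summed to 86.4, 52.1 and 158 TPM with vehicle and 92.7, 58.5 and 55.3 with BML-260, with 0 of 6 called. Vehicle replicate 3, with the highest tendon sum in TPM, had the lowest normalized count of Col22a1. In TPM, however, vehicle replicate 2 had both the lowest Col22a1 level (1.99) and the lowest tendon sum (52.1). The part of tendon in the Col22a1 values was not tested.

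**Figure D5:**
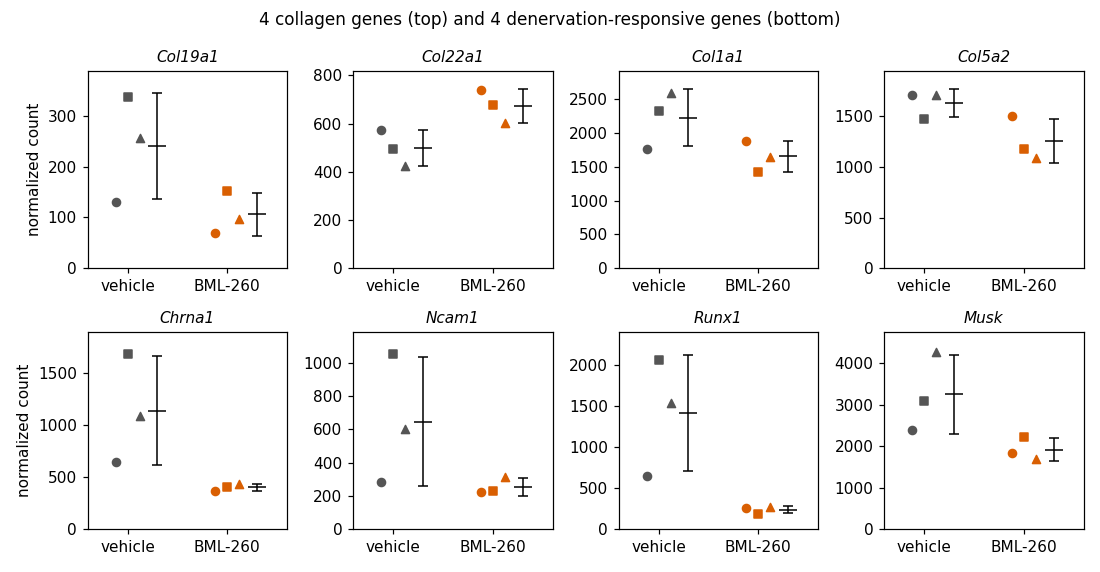
Normalized counts (y axis, from 0) of the 4 called collagen genes (top) and of 4 genes of the neuromuscular junction and denervation (bottom) in vehicle and BML-260 libraries, where circle, square and triangle are replicates 1, 2 and 3 and the bar is the mean with SD. Col22a1 is the only 1 of the 4 collagen genes whose groups do not overlap (425 to 575 against 603 to 741).

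Col14a1 and Col12a1, FACIT collagens on the surface of type I fibrils in tendon and perimysium, varied more among the libraries than between groups. Col14a1 (12818) had normalized counts of 388, 561 and 1209 with vehicle and 433, 499 and 480.0 with BML-260. Vehicle replicate 3 was at 2.52 times the median of the others, the highest such value of the 38 genes, and the log2 fold change of -0.62 (SE 0.36) was -0.01 without it. Without vehicle replicate 1 it was -0.91 and Col14a1 was called lower (8.36% of all genes in that setting), with an adjusted p of 0.293 by edgeR with Benjamini-Hochberg adjustment, the lowest over the alternatives, which reached 1.00. Col12a1 (12816) had 828, 543 and 879.8 with vehicle and 1090.0, 463 and 400.2 with BML-260. BML-260 replicate 1 was the highest library, and leaving it out changed the log2 fold change from -0.21 (SE 0.37) to -0.80, which was a call (3.51% of all genes lower in that setting; adjusted p 0.981 by edgeR with Benjamini-Hochberg adjustment, 0.740 to 1.00 over the alternatives).

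Fibroblast and fibro-adipogenic progenitor genes (Pdgfra, Dcn, Dpt, Lum, Gsn, Pi16, Cd34 and Ly6a) summed to 1175, 558 and 1497 TPM with vehicle and 1051, 768 and 686 with BML-260, and 0 of 8 were called. As with Col12a1, BML-260 replicate 1 had the highest sum of its group, and as with Col14a1, vehicle replicate 3 had the highest sum of all. Dcn alone gave 676 TPM of the sum in vehicle replicate 3. In normalized counts that library was the highest for Dcn (25418) and the lowest for Lum (1079), so these markers did not share a direction. The part of fibroblasts and fibro-adipogenic progenitors in the collagen values was not tested.

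Col28a1 (213945), a collagen known from the surroundings of Schwann cells in peripheral nerve, had normalized counts of 53.3, 75.4 and 129.6 with vehicle and 35.4, 27.9 and 68.7 with BML-260. Its log2 fold change of -0.98 (SE 0.46, unadjusted p = 0.062 by edgeR) missed the threshold, and was -0.56 without vehicle replicate 3, the highest library. It was called lower in 5 of 16 alternatives: by DESeq2 (unadjusted p = 0.048), without a filter (unadjusted p = 0.047 by edgeR), with the replicate number as a block (-0.97), without vehicle replicate 1 (-1.24) and without BML-260 replicate 3 (-1.45). The adjusted p was 0.788 by edgeR with Benjamini-Hochberg adjustment, and 0.328 to 1.00 over the alternatives.

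The short-chain Col8a1, a collagen of the vessel wall, had normalized counts of 283, 248 and 438 with vehicle and 296, 252 and 237 with BML-260, a log2 fold change of -0.31 (SE 0.24) that was -0.02 without vehicle replicate 3. Col20a1, a FACIT gene, had 357, 309 and 418 with vehicle and 400.1, 449.8 and 458 with BML-260. Its log2 fold change was 0.27 (SE 0.17), and without vehicle replicate 3 it was 0.38 and a call (adjusted p 1.00 by edgeR with Benjamini-Hochberg adjustment, 0.551 to 1.00 over the alternatives). The last 5 genes of the class were not called: Col7a1 of the anchoring fibrils (-0.21, SE 0.41), the FACIT Col16a1 (0.05, SE 0.27), the transmembrane Col23a1 (0.28, SE 0.26) and Col17a1 (-0.27, SE 0.51), and the short-chain Col8a2 (0.08, SE 0.42). The sign of each but Col23a1 turned when some 1 library was left out. Col16a1 was negative on log2(TPM + 0.1), at -0.05, where the median of all genes was -0.14.

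The vehicle libraries varied more than the BML-260 libraries. The SD of log2 normalized counts was larger in the vehicle group for 26 of the 38 collagen genes (68.4%), close to the 70.3% of all tested genes. By class they were 6 of 10 fibrillar, 6 of 8 basement membrane, 5 of 5 Col6 and 9 of 15 other genes. Vehicle replicate 3 was the lowest library for 4 of the 5 Col6 genes and the highest for 1. The SD without that library was not computed.

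Cartilage-type collagens bear on whether bone or cartilage was taken with the muscle. Among the defining genes, Matn1 and Bglap had 0 counts in every library and Acan at most 5.96 normalized counts, whereas Ibsp, a bone matrix protein, had 203 in vehicle replicate 3 and at most 6.39 elsewhere. Sox9, the only 1 of these 5 tested, was not called. Col2a1, the main collagen of cartilage, has no TPM and had 33 counts in vehicle replicate 3, 12 in BML-260 replicate 1 and 0 in the other 4 libraries. Col9a2, Col9a3, Col10a1, Col26a1 and Col6a4 also have counts without TPM, with 6 to 66 counts over all 6 libraries, and are no members.

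Of 32 collagen genes with a RefSeq start window (35 windows of 300 bases), searched on both strands with each motif counted by itself, 20 held the GC box GGGCGG that Sp1 binds. It was in 21 of the 35 windows (60.0%), against 35.7% of all 32851 windows. The E-box CANNTG was in 54.3% of the collagen windows and 72.3% of all, and CCAAT in 34.3% and 37.4%. The AP-1 motif TGANTCA was in 1 window, that of Col6a1 (7.81% of all windows). These are matches of letters, and hits of different motifs may overlap. Col1a1, Col5a2, Col22a1, Col12a1, Col14a1 and Col4a3 have no window and are not in these shares. Neighbours on a chromosome did not share a direction throughout: Col3a1 (-0.13) and Col5a2 (-0.38), 24624 bases apart, and Col6a1 (0.27) and Col6a2 (0.32) did, while Col9a1 (0.53) and Col19a1 (-1.19), and Col6a5 (-0.68) and Col6a6 (0.64), did not.

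The genes that make, trim, bind and sense collagen gave 5 calls lower (4.86% of all tested genes) and 1 higher (0.896%) among 76 tested. Of the 76 log2 fold changes 52 were negative and 24 positive, with a median of -0.084, where 50.5% of all genes were negative. There were 1 call lower (2.99% of all genes) and 0 higher (1.02%) without vehicle replicate 3. For folding and modification, 1 of 19 was called higher, P4ha2 (0.44, SE 0.19), a prolyl 4-hydroxylase that stabilizes the helix, and 0 lower. P4ha1 (0.32, SE 0.24) and the collagen chaperone Serpinh1 (0.19, SE 0.20) were not called. The call of P4ha2 was lost without any 1 library other than vehicle replicate 1, with values between 0.32 and 0.49. It was also lost on log2 TPM with either pseudocount.

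For processing and crosslinking, 1 of 13 was called lower and 0 higher. This was Lox, the oxidase that crosslinks fibrils, with normalized counts of 643, 651 and 3191 with vehicle and 635, 421 and 464 with BML-260. The log2 fold change of -1.56 (SE 0.59) was -0.36 without vehicle replicate 3, and not a call, and the call was also lost without BML-260 replicate 2 (-1.45) or 3 (-1.50). The robust test, the replicate number as a block, voom and log2 TPM with either pseudocount did not give the call either. Pcolce, an enhancer of procollagen cleavage, differed by -0.06 (SE 0.17).

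Of 11 fibril partners, 2 were called lower and 0 higher. Bgn, encoding the proteoglycan biglycan, had normalized counts of 1511, 1775 and 2649.9 with vehicle and 1323, 1027 and 1021 with BML-260, with no overlap. Its log2 fold change was -0.82 (SE 0.22, adjusted p = 0.655 by edgeR with Benjamini-Hochberg adjustment, 0.117 to 0.981 over the alternatives), and -0.55 without vehicle replicate 3, still a call. Postn, encoding periostin, was at -0.86 (SE 0.33) with all libraries and -0.40 without vehicle replicate 3, and its call was also lost without any 1 BML-260 library (-0.87 to -0.83). With voom, with the replicate number as a block and on log2 TPM with either pseudocount Postn was not called. Dcn, encoding decorin, differed by -0.20 (SE 0.36).

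Of the 10 basement membrane partners, laminins, nidogens, perlecan and agrin, 0 were called by the fold and unadjusted p rule of edgeR in either direction (-0.20 to 0.21). Of 11 receptors, 1 was called lower, the leukocyte receptor Lair1 (-1.07, SE 0.46). Its call was lost with voom and without any 1 library other than BML-260 replicate 1 (-1.16 to -0.77). Of 12 regulators, 1 was called lower, Ccn2 (connective tissue growth factor, -0.87, SE 0.34), which was at -0.28 without vehicle replicate 3 and not called there or without any 1 BML-260 library (-0.91 to -0.84). Ccn2 was also not called with voom or on log2 TPM with either pseudocount. Tgfb1 differed by -0.77 (SE 0.38, unadjusted p = 0.076 by edgeR). Macrophage genes (Adgre1, Cd68, Csf1r and Mrc1), which bear on Lair1, summed to 26.2, 19.6 and 64.1 TPM with vehicle and 15.6, 18.5 and 21.9 with BML-260. Adgre1 (-1.08), Csf1r (-0.86) and Mrc1 (-1.31) were called lower (4.86% of all tested genes), also without vehicle replicate 3 (2.99%). Cd68 was not called, at 0.0018 (SE 0.49) and 0.39 without that library. Their part in these results was not tested.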

How the data were processed

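RNA-Seq of 6 TA libraries, 3 per group, was analysed from the deposited gene tables. The submitters' processing notes name Trimmomatic 0.38, StringTie 2.1.3b, Bowtie2 2.3.4.1, HISAT2 2.1.0 and mm10. The authors deposited raw counts per gene for all libraries in 1 table and TPM values per library, listed for 16800 genes that have a count in each library. Rules for strand and multi-mapped reads are not given in the sources used here, so genes that share sequence could have shared reads. Depth was 39522890 to 56998875 counts a library.

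Counts were tested in R 4.3.3 with edgeR 4.0.16 (filterByExpr, TMM, quasi-likelihood F-test, Benjamini-Hochberg over 16188 genes, which held 99.9% of counts), although the study used DESeq2, which served as an alternative. The SE of a log2 fold change is its absolute value over the root of the F statistic. Normalized counts are counts divided by size factors of DESeq2 1.42.0. Groups came from the labels. Batches of mice or libraries are not given in the sources used here, and replicates differed by more than counting error. Alternatives were RLE and upper quartile scaling, no filter, at least 10 counts in every library, the replicate number as a block, DESeq2, the robust test, voom with sample weights and a trend test on log2(TPM + 1) or log2(TPM + 0.1) in limma 3.58.1, and each library left out. The tests were also run on simulated counts, in which no library was made to stand apart as vehicle replicate 3 did. That run does not show how the tests behave with such a library.

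Genes named are the 10 most abundant collagens, each called collagen, a list of main chains of each class, called pathway genes, and Serpinh1, P4ha1, Lox, Pcolce, Dcn and Tgfb1. The other collagens, the called markers and the genes that define other tissues were named beyond this rule, after their values were seen. One marker list is not reported here. The members, gene lists and tests were chosen with earlier results of these data known. Gene positions and start windows are from RefSeq, GRCm38.p6, the assembly behind mm10, in which all 38 genes were found by identifier, 32 of them with a window. Plots were made in Python 3.11.15 (matplotlib 3.10.9).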

Additional observations from a re-analysis of the deposited data

How the results depend on the processing

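The count of 0 collagen genes at an adjusted p under 0.05 held under all 16 alternatives. Collagen genes called lower (3) were 1 with voom and on log2 TPM with either pseudocount, and 1 to 4 with a library left out. Those called higher (1) were 0 on log2 TPM with either pseudocount and 0 to 3 with a library left out, where all genes gave 2.55 to 8.36% lower and 0.364 to 5.07% higher. Pathway genes called lower (5) were 2 with voom and on log2 TPM, and 1 to 7 with a library left out, and those called higher (1) were 0 on log2 TPM and 0 to 3. With a library left out, median log2 fold changes were 0.014 to 0.20 for all collagens, -0.17 to 0.089 for fibrillar, 0.0073 to 0.38 for basement membrane and -0.31 to 0.067 for other collagens. On log2(TPM + 0.1) and log2(TPM + 1) the median of all collagens was -0.049 and -0.030, above the all-gene medians of -0.14 and -0.098. The fibrillar median was -0.13 on log2(TPM + 0.1), the basement membrane median 0.037 on log2(TPM + 1), and the median of the other collagens 0.042 with at least 10 counts in every library (fewer genes) and 0.026 with voom. The summed collagen log2 ratio was -0.25 to -0.13 with a library left out and -0.048 in CPM with TMM scaling. The log2 ratio of Col1a1 to Col3a1 was -0.72 to 0.085 with a library left out.

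Signs turned with a library left out for Col3a1 (-0.39 to 0.083), Col1a2 (-0.23 to 0.034), Col6a3 (-0.12 to 0.55), Col15a1 (-0.012 to 0.74), Col12a1 (-0.80 to 0.047), Col18a1 (-0.26 to 0.063), Col7a1 (-0.61 to 0.33), Col8a2 (-0.43 to 0.37), Col17a1 (-0.59 to 0.084), Col16a1 (-0.16 to 0.36), Col27a1 (-0.11 to 0.33), Col25a1 (-1.13 to 0.065), Pcolce (-0.19 to 0.037) and Dcn (-0.53 to 0.0031). Col16a1 was -0.050, Col27a1 -0.049 and Col8a2 -0.20 on log2(TPM + 0.1), and -0.061, -0.012 and -0.070 on log2(TPM + 1). With voom, Col25a1 was 0.026 and Dcn 0.17. The cause was not tested. With the replicate number as a block, Col8a2 was -0.011, and 3 collagens were called lower, with Col28a1 in place of Col1a1, 2 higher (Col22a1 and Col24a1), and 3 pathway genes lower. Deviations of same-numbered libraries correlated at 0.162, 0.0541 and 0.110 across genes, each higher than with another number, and the numbers were not taken to pair the mice. With 3 mice a group, the SE of single collagens was 0.14 to 0.81, which limits how small a difference could be called.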
